A study of Mus musculus with 2 samples.

Results

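Fibroblasts of the brain's coverings or vessel walls were picked out of single-cell RNA libraries of the embryonic mouse dorsal telencephalon by their transcripts. They made up 227 of the 16348 cells that passed the quality limits. Members were chosen on measured values. A cell was taken if it had 1500 to 60000 unique molecular identifiers (UMIs, each standing for a captured mRNA molecule), under 10% mitochondrial UMIs, at least 3 UMIs of Col1a2, at least 1 UMI of Dcn, Lum or Foxc1, and at most 1 UMI each of Cldn5, an endothelial gene, and Rgs5, a mural cell gene. WT replicate 1 held 116 members, 1.43% of its 8139 passing cells (Wilson 95% interval 1.19 to 1.71), and WT replicate 6 held 111, 1.35% of 8209 (1.12 to 1.63), a mean of 1.39% ± 0.0517 (SD, n = 2). They carried 3.01% and 2.54% of the UMIs of the passing cells. These intervals cover counting error only.

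The libraries came from wild-type embryos at embryonic day 16.5, labelled as brain hemispheres, whose dorsal telencephalon was dissociated with papain and put through droplet-based 3′ sequencing. The series was designed around an Emx1-Cre-driven deletion of Dot1l with controls, and the deletion was not analysed here, so the only groups are cell classes within each WT library. The deposited libraries held 14136 and 13046 barcodes with 74930397 and 68964234 UMIs, and 59 barcode sequences occurred in both. The labels do not say whether the libraries came from separate embryos, and p-values below measure the spread between these 2 libraries, which may be technical.

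As background, the embryonic brain is wrapped in the meninges, whose innermost layer, the pia, lies on the outer basement membrane of the cortex, followed by the arachnoid and, under the skull, the dura. Meningeal fibroblasts lay down collagens and laminins, secrete the chemokine Cxcl12 and bone morphogenetic proteins towards the cortex, and make retinoic acid. Perivascular fibroblasts sit on larger vessels and share most of these transcripts, and the gate used here does not separate them from meningeal cells.

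The markers used to name the class were checked first. Col1a1, a type I collagen chain that the gate did not use, was detected in 116 of 116 members of WT replicate 1 and 107 of 111 of WT replicate 6, at medians of 10 and 8 UMIs, and in 0.947% and 0.741% of all other passing cells. Dcn, the proteoglycan decorin, was detected in 97.4% and 99.1% of members, Lum, its relative lumican, in 88.8% and 89.2%, and Foxc1, a forkhead factor of the meninges, in 80.2% and 82.0%. All 3 of these genes were present together in 82 and 81 members, although the gate asked for only 1. Dcn, Lum and Foxc1 chose the cells, and their values are given as a description. Few cells lay at the edge of the gate, since 1 and 3 members had exactly 3 Col1a2 UMIs, and 4 and 5 further cells would have entered at exactly 2. The limit on Rgs5 left out 26 and 24 cells that met the other conditions. Their median Rgs5 counts were 45 and 47 UMIs and Kcnj8, a pericyte potassium channel, was present in 25 and 21 of them, whereas Dcn was present in 1 and 0 and Aldh1a2 in none, while Foxc1, a gate gene, was present in 25 and 23 of them and Col1a2 was at a median of 4 UMIs in both libraries. They thus carried mural cell genes together with part of the gate's own genes.

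Members were deeper than other cells, with medians of 14553 and 12898 UMIs against 6832 and 6609. A Scrublet-type score placed 36.2% and 36.9% of them among the likely doublets, against 10.9% and 10.1% of all other passing cells, and left out, they reduced the mean share to 0.989%. Transcripts of neighbouring cell types were measured in them. The 10 excitatory neuron markers summed to 461 and 393 UMIs per 1000000 UMIs (CPM) in members and to 2176 and 2222 CPM elsewhere, and none of the 10 was at 0. Among members the sum was 886 and 773 CPM in the likely doublets and 130 and 113 CPM in the others. The 10 interneuron markers summed to 332 and 278 CPM against 2011 and 1960, with none at 0. Haemoglobin and other erythroid genes reached 2477 and 1054 CPM against 14294 and 20942, and Hbb-y, Hba-x and Slc4a1 were at 0 in members. A single member of WT replicate 1 carried 2451 of these UMIs, and the highest member of WT replicate 6 carried 28. Their sum was lower in the likely doublets, at 1817 and 858 CPM, than in the other members, at 2992 and 1198. The Schwann cell and oligodendrocyte precursor genes summed to 12.2 and 12 CPM, with Sox10, Foxd3 and Erbb3 among those at 0 in both libraries. With Aqp1 left out, 6 choroid plexus genes summed to 37.2 and 27.8 CPM in members against 581 and 10.0 elsewhere. Their sum did not exceed 6 UMIs in any member. With Aqp1 counted, 2 of 6 measured choroid plexus genes were at least 4-fold higher in members in both libraries, beside 6.37% over all genes. Aqp1 and Kl were higher than in mural and endothelial cells by the tests below. The part of these transcripts in the results below was not tested. The class share, the ratios, the tests, the shares held, the variation, the correlations and the cell cycle shares were recomputed without the likely doublets.

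The gene description uses sums of UMIs per class and library. Against all other passing cells, where the gate itself fixes the contrast, values are a description without a test, and of 17704 genes with at least 20 UMIs in each library 1127 (6.37%) were at least 4-fold higher in members in both libraries and 820 (4.63%) at least 4-fold lower. Tests were run against 2 gated classes of the vessel wall in the same libraries, 90 and 85 mural cells (pericytes and smooth muscle) and 83 and 71 endothelial cells. Mural cells had at least 3 UMIs of Rgs5, at least 1 of Kcnj8, Abcc9 or Notch3, at most 1 of Cldn5 and at most 2 of Col1a2. Endothelial cells had at least 3 UMIs of Cldn5, at least 1 of Pecam1, Cdh5 or Kdr, at most 1 of Rgs5 and at most 2 of Col1a2. Without the limit on Col1a2 there were 128 and 117 mural and 84 and 71 endothelial cells. Tests left out every gene used in the gates of the compared classes. By edgeR's quasi-likelihood test at an adjusted p under 0.05, 1216 of 11055 genes (11.0%) were higher and 1171 (10.6%) lower in fibroblasts than in mural cells, and 1802 of 11350 (15.9%) were higher and 1879 (16.6%) lower than in endothelial cells. Both tests use the same fibroblast sums, so they are not independent of each other. Log2 changes are fibroblast over the other class, from 2 libraries a class. The value after ± is a standard error derived from the test, the absolute log2 change divided by the square root of its F statistic. Counts come from transcript ends and differ in yield between genes, so levels are compared only within a gene.

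Fibrillar collagens and the chains that associate with them were mostly higher in fibroblasts than in both vessel wall classes, a contrast that the gates set in part, since they ask for Col1a2 in fibroblasts and limit it in the other classes. Of 16 such genes, 13 were at least 4-fold higher than in all other cells, of which Col1a2 was used by the gate. Against mural cells 12 of 14 tested were higher and 1 lower, with a median log2 change of 1.99 against -0.01 over all genes, and against endothelial cells 12 of 12 were higher. With the limit on Col1a2 lifted the counts were again 12 of 14 higher and 1 lower, with a median of 2.02, and 12 of 12. Col1a1 stood at 713 and 730.1 CPM in fibroblasts of WT replicates 1 and 6, 4.94 and 3.72 in mural cells, 0 and 0 in endothelial cells and 1.41 and 1.22 in all other cells. Both fibroblast values lay far above every other, and fibroblasts held 94.0% and 94.0% of all Col1a1 UMIs. Against mural cells the log2 change was 7.40 ± 0.27 (edgeR adjusted p = 9.41e-07).

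Col3a1, the type III collagen of soft tissue, was at 1468 and 1626 CPM in fibroblasts, 160.0 and 187 in mural cells and 2.37 and 3.27 in endothelial cells. Mural cells thus also carried Col3a1, and the difference to them was a log2 change of 3.23 ± 0.19 (edgeR adjusted p = 5.29e-06). The beaded-filament chains Col6a1 and Col6a2 separated the classes more widely. Col6a1 was at 157 and 181 CPM in fibroblasts against 0.988 and 0 in mural cells, and Col6a2 at 146 and 149 against 6.91 and 11.2, while neither had an endothelial UMI, which puts fibroblasts at least 139.5-fold and at least 122-fold higher than endothelial cells. The transmembrane collagen Col13a1 was likewise at 0 in endothelial cells and at 142 and 131 CPM in fibroblasts. At the other end, Col5a2, a regulatory chain of fibril width, differed from mural cells by 0.88 ± 0.19 (edgeR adjusted p = 0.00876), and Col14a1, a fibril-associated collagen, was the 1 chain lower in fibroblasts, at 7.64 and 5.05 CPM against 23.7 and 18.6 in mural cells (-1.64 ± 0.39, edgeR adjusted p = 0.0151, DESeq2 adjusted p = 0.115). Col8a1 rested on few cells, with 93 UMIs in 6 members of WT replicate 1, of which 3 cells carried 91.4%, and 3 UMIs in 3 members of WT replicate 6.

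**Figure D1:**
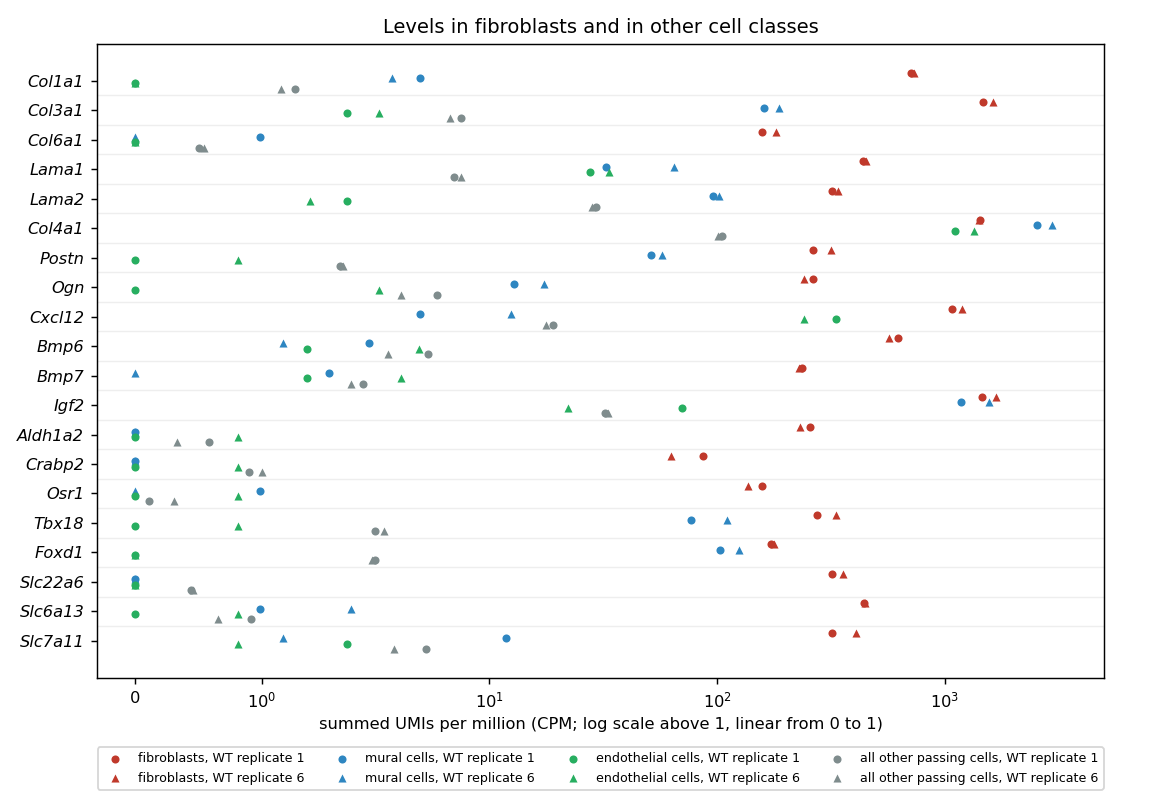
Levels of 20 genes, ordered from matrix to secreted signals, retinoic acid, transcription factors and transporters, as UMIs per 1000000 of each class's summed UMIs on a log axis that is linear from 0 to 1; circles are WT replicate 1 and triangles WT replicate 6. The fibroblast points are the rightmost for every gene but Col4a1, where mural cells were higher, and for Igf2 they lie beside the mural cells.

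Promoter windows of 3 genes from this account are shown to give their sequence context. Col1a2 defined the gate, Slc22a6 had the largest ratio to all other cells by the smaller of the 2 libraries and Aldh1a2 makes retinoic acid. Each is the 250 bases before the RefSeq start on GRCm38.p6, all on the plus strand, with CCAAT or its reverse complement ATTGG in capitals. The windows lie at chr6:4505368-4505617, chr9:71215539-71215788 and chr19:8617746-8617995.
Col1a2: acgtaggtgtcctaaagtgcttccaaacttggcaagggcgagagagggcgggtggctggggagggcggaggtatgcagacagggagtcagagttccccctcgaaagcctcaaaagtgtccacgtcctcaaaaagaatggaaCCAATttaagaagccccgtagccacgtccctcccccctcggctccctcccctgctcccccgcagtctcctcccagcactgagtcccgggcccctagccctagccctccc
Aldh1a2: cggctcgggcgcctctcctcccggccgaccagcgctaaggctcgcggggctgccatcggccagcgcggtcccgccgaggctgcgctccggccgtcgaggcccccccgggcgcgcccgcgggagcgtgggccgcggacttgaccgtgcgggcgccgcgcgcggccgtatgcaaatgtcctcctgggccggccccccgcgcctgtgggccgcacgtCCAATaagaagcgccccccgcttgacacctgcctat
Slc22a6: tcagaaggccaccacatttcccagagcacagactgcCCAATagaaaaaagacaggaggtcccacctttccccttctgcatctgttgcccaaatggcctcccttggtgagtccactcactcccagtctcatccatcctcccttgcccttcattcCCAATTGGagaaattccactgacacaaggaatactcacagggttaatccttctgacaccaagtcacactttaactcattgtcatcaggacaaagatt
Col1a2 holds the motif once, starting 109 bases before the start, Aldh1a2 once, at 36 bases, and Slc22a6 at 214 and 97 bases with a reverse motif at 94 that overlaps the latter. Of all 32851 RefSeq promoter windows 33.8% hold the motif on either strand, and by gene 37.5% of 27025. The motif was present for 3 of 11 fibrillar collagen genes with a window, 6 of 11 retinoic acid genes and 5 of 16 among the 20 genes with the largest ratio to all other cells. A match is a description of these letters, and no window was given for Col1a1.

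Small leucine-rich proteoglycans and elastic fibre proteins followed the collagens. Of 29 matrix glycoproteins and proteoglycans, 23 were at least 4-fold higher than elsewhere (2 of them, Dcn and Lum, being gate genes). Against mural cells 16 of 24 were higher and none lower. Among those that did not pass was Bgn, the proteoglycan biglycan, at 365 and 366 CPM in fibroblasts and 333 and 398 in mural cells (0.07 ± 0.17, edgeR adjusted p = 0.812). Against endothelial cells 18 of 26 were higher and 1 lower. Ogn, osteoglycin, was at 263 and 241 CPM in fibroblasts, 12.8 and 17.4 in mural and 0 and 3.27 in endothelial cells. Postn, the matricellular protein periostin, was at 263 and 316 CPM against 51.4 and 57.1 and 0 and 0.817. Both genes were higher than in mural cells, with log2 changes of 4.14 ± 0.22 (edgeR adjusted p = 3.83e-06) and 2.49 ± 0.19 (2.11e-05). Fbln5, an organiser of elastic fibres, had no mural UMI and 121 and 103 fibroblast UMIs, at least 38.3-fold higher, while endothelial cells carried it at 68.7 and 2.45 CPM and the difference from them, 0.81 ± 0.70, did not pass (edgeR adjusted p = 0.43), but did without likely doublets (2.77, edgeR adjusted p = 7.77e-04). The fibrillins Fbn1 and Fbn2 rose against mural cells by 4.75 ± 0.31 and 3.23 ± 0.18. Sparc, a collagen-binding glycoprotein, was high in both vessel classes, at 1933 and 1949.8 CPM in fibroblasts, 812 and 866 in mural and 2201 and 2233 in endothelial cells.

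Enzymes that fold, trim and cross-link collagen were raised less evenly. Of 26 measured, 17 were at least 4-fold higher than elsewhere, 13 of 23 were higher and 3 lower than in mural cells, and 16 of 24 were higher and 2 lower than in endothelial cells. Lox, the lysyl oxidase that starts cross-links, was at 77.4 and 83.4 CPM in fibroblasts against 0 and 3.72 in mural cells (5.59 ± 0.51, edgeR adjusted p = 5.26e-05), and its relative Loxl1 changed by 4.66 ± 0.45 (7.70e-05). Loxl3 went the other way, with 19.9 and 15.8 CPM against 45.4 and 47.2 (-1.29 ± 0.25, edgeR adjusted p = 0.0057, DESeq2 adjusted p = 0.0501). Serpinh1, the collagen chaperone Hsp47, was at 834 and 928 CPM in fibroblasts, 491 and 586 in mural and 465 and 484 in endothelial cells, differing by 0.78 ± 0.18 and 0.90 ± 0.14. Pcolce, an enhancer of procollagen trimming, had no endothelial UMI, and Bmp1, the protease it helps, was lower than in mural cells (-1.46 ± 0.24, edgeR adjusted p = 0.00232).

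Proteases and their inhibitors numbered 18, of which 10 were at least 4-fold higher than elsewhere, 12 of 17 higher and 2 lower than in mural cells, and 14 of 17 higher and 1 lower than in endothelial cells. Serpinf1, the anti-angiogenic serpin PEDF, stood at 223 and 287 CPM in fibroblasts against 1.98 and 4.96 in mural and 13.4 and 13.1 in endothelial cells, and fibroblasts held 86.8% and 84.1% of its UMIs. Mmp2, a gelatinase, and Ctsk, a collagen-cleaving cathepsin, changed by 5.96 ± 0.42 (edgeR adjusted p = 1.20e-05) and 2.67 ± 0.21 (2.30e-05) against mural cells. Serpine2, the serpin protease nexin-1, and Mmp11 were lower than in mural cells, Serpine2 at 7.64 and 6.32 CPM against 115 and 118, although Mmp11 did not pass by DESeq2 (adjusted p = 0.0667). Mmp9, a gelatinase outside this list, was at 0 in every fibroblast and had 400 and 334 mural UMIs, at least 477-fold lower.

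**Figure D2:**
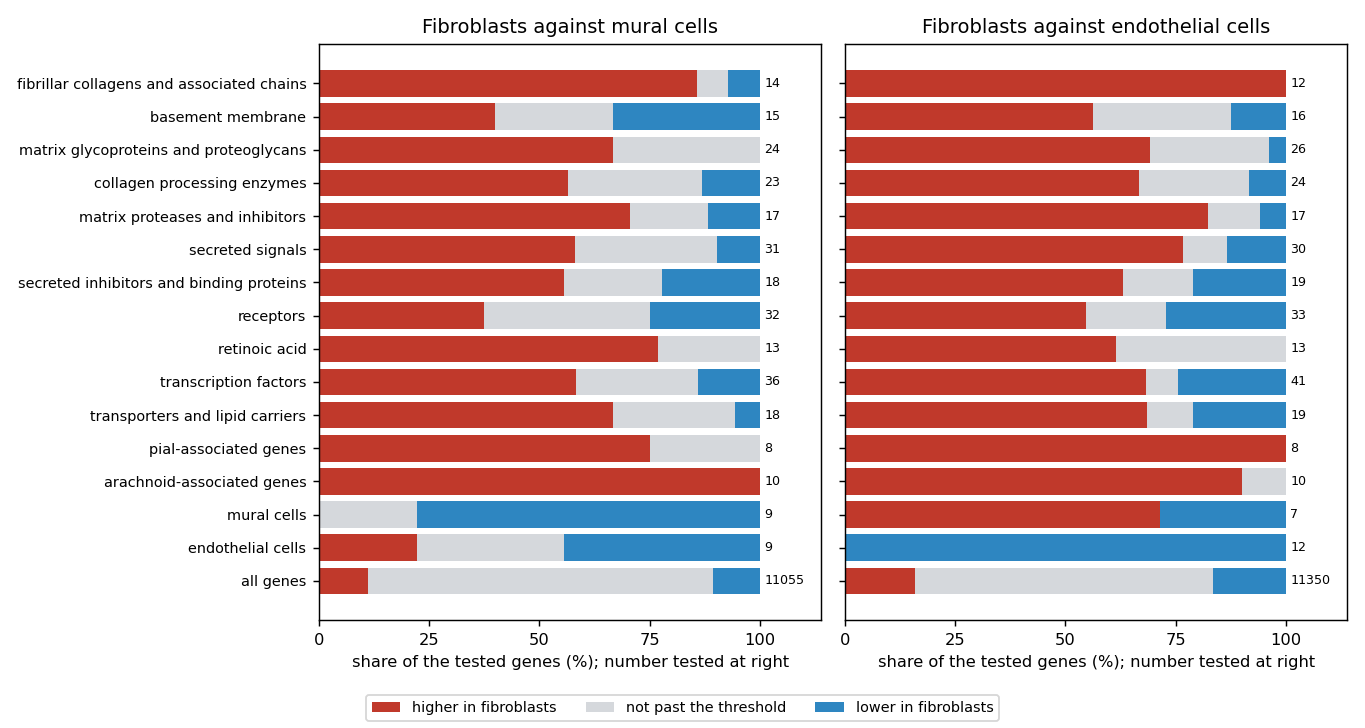
Share of the tested genes of each list that were higher (red), lower (blue) or not past the threshold (grey) in fibroblasts by edgeR at an adjusted p under 0.05, against mural cells (left) and endothelial cells (right), with the number tested at the right of each bar. Over all genes 11.0% and 15.9% were higher; the basement membrane list is the 1 matrix list with a large blue part against mural cells, 5 of 15.

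Basement membrane genes, which every cell class of the vessel wall makes, split by chain rather than moving as a block. Of 17, 15 were at least 4-fold higher in fibroblasts than elsewhere, but against mural cells 6 were higher, 5 lower and 4 did not pass. The type IV collagen chains divided. Col4a5 was at 375 and 411 CPM in fibroblasts, 9.88 and 4.96 in mural and 0.79 and 1.63 in endothelial cells, and Col4a6, its neighbour, at 248 and 284 against 3.95 and 1.24 and 1.58 and 0.817. In contrast Col4a1, the chain common to vascular basement membranes, was at 1425 and 1414 CPM in fibroblasts, 2524 and 2947 in mural and 1111 and 1339.9 in endothelial cells. Thus Col4a5 and Col4a6 rose against mural cells by 5.74 ± 0.27 (edgeR adjusted p = 2.55e-06) and 6.62 ± 0.32 (2.65e-06), whereas Col4a1 and its partner Col4a2 were lower, at -0.88 ± 0.17 (0.00516) and -0.72 ± 0.17 (0.0133). Against endothelial cells Col4a1 and Col4a2 did not pass, at 0.22 ± 0.15 and -0.08 ± 0.15.

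Laminin chains divided in the same manner. Lama1, the alpha chain of the pial surface, was at 439 and 449.7 CPM in fibroblasts, 32.6 and 64.5 in mural and 27.6 and 33.5 in endothelial cells, and Lama2, the alpha chain of mesenchymal laminin, at 319 and 340.4, 95.8 and 102 and 2.37 and 1.63. Fibroblast values exceeded all others for both, and the changes against mural cells were 3.29 ± 0.28 (edgeR adjusted p = 3.27e-05) and 1.81 ± 0.17 (6.83e-05). Lama4, the vascular alpha chain, was lower than in mural cells (-0.77 ± 0.19, edgeR adjusted p = 0.019) and than in endothelial cells (-0.64 ± 0.19, 0.029), as was the shared gamma chain Lamc1 against mural cells (-0.74 ± 0.16, 0.0108). Lamc3 was at 90.1 and 99.2 CPM in fibroblasts and 128 and 170.1 in mural cells, a difference that did not pass (edgeR adjusted p = 0.0561, or 0.023 with the library as a replicate block), and at 3.16 and 0 in endothelial cells. The linker Nid2 was higher than in both classes, though not by DESeq2 against endothelial cells (adjusted p = 0.0734), and Nid1 was lower than in mural cells (-0.66 ± 0.17, edgeR adjusted p = 0.0202). Hspg2, the proteoglycan perlecan, was at 36.1 and 40.4 CPM in fibroblasts and 134 and 132 in endothelial cells (-1.80 ± 0.15, edgeR adjusted p = 2.17e-05).

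**Figure D3:**
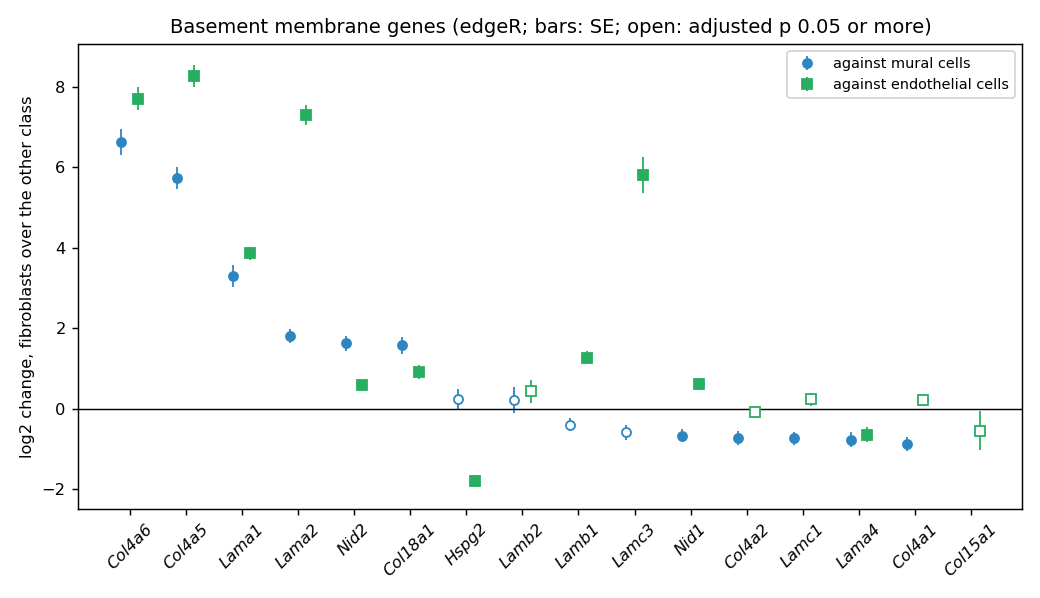
Log2 change of 16 basement membrane genes in fibroblasts over mural cells (blue circles) and over endothelial cells (green squares), from 2 libraries a class. Bars are standard errors derived from edgeR's F statistic. Open symbols did not pass and a gene too low for a test has no symbol. Col4a6, Col4a5, Lama1 and Lama2 stand above 0 in both comparisons, and Nid1, Col4a2, Lamc1, Lama4 and Col4a1 stand below 0 against mural cells.

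Transcripts of several secreted signals lay mainly in fibroblasts. Of 42 measured signals, 16 were at least 4-fold higher than in all other cells, and for 9 of them over 50% of all UMIs in passing cells lay in members, which held 3.01% and 2.54% of UMIs over all genes. The 9 were Edn3, Bmp4, Wnt6, Bmp6, Wnt4, Bmp7, Cxcl12, Bmp5 and Igf2. Against mural cells 18 of 31 signals were higher and 3 lower, with a median log2 change of 1.06, and against endothelial cells 23 of 30 were higher and 4 lower, with a median of 2.78.

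Cxcl12, the chemokine that guides interneurons and Cajal-Retzius cells along the meninges, was at 1076 and 1189 CPM in fibroblasts, 4.94 and 12.4 in mural, 333 and 242 in endothelial and 19.1 and 17.8 in all other cells. Endothelial cells came next. The log2 change was 7.14 ± 0.32 against mural cells (edgeR adjusted p = 1.91e-06) and 1.98 ± 0.19 against endothelial cells (5.05e-05). At a common 1500 UMIs a cell, 69.0% and 77.5% of fibroblasts had a Cxcl12 UMI, against 1.93% and 1.78% of all other cells. Without thinning the shares in fibroblasts were 96.6% and 97.3%.

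Bone morphogenetic proteins made up 4 of the 9. Bmp6 was at 623 and 567 CPM in fibroblasts against 2.96 and 1.24 in mural and 1.58 and 4.90 in endothelial cells, and Bmp7 at 236 and 229 against 1.98 and 0 and 1.58 and 4.08. Each rose against both classes, Bmp6 by 8.09 ± 0.31 (edgeR adjusted p = 1.51e-06) and 7.50 ± 0.28 (2.79e-07), and Bmp7, with 2 mural UMIs in all, by 211-fold (95% counting interval 58.3 to 1749) over mural cells and by 6.33 ± 0.26 over endothelial cells (3.59e-07). Bmp4 had 54 and 62 UMIs in fibroblasts, which held 84.4% and 81.6% of its UMIs. Bmp5 differed in that mural cells also carried it, at 63.2 and 77.0 CPM against 115 and 130.1 in fibroblasts (0.88 ± 0.18, edgeR adjusted p = 0.00777), with no endothelial UMI.

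Among the Wnt ligands, Wnt6 was at 80.4 and 58.1 CPM in fibroblasts, with no mural UMI (at least 42.7-fold higher), and Wnt4 at 183 and 191 CPM against 4.94 and 3.72 in mural cells (5.45 ± 0.26, edgeR adjusted p = 2.56e-06). Wnt5a was spread over more cell classes, with 18.4% and 15.6% of its UMIs in fibroblasts and a change against mural cells of 1.05 ± 0.20 (0.00442). Edn3, an endothelin that acts on melanoblasts and enteric neuron precursors, had the highest share of the list, 89.7% and 86.4%, at 106 and 120.0 CPM against 0.988 and 3.72 in mural cells.

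Igf2, the imprinted growth factor, was shared with mural cells, at 1448 and 1682 CPM in fibroblasts and 1177 and 1563 in mural cells, a difference that did not pass (0.26 ± 0.19, edgeR adjusted p = 0.379), while endothelial cells had 70.3 and 22.0. Ptn, the growth factor pleiotrophin, was at 5939 and 6794 CPM in fibroblasts and 1915 and 1916 in mural cells and also 881 and 932 in all other cells. Il34, a ligand of the microglial receptor Csf1r, did not pass against mural cells (-0.39 ± 0.23, edgeR adjusted p = 0.282, or 0.0128 and lower with mural cells taken at any Col1a2 count), and Csf1, the other ligand of that receptor, did (2.72 ± 0.30, 1.68e-04). The 3 signals lower than in mural cells were Ntn1, Tgfb1 and Kitl. Kitl, stem cell factor, was at 21.9 and 17.7 CPM in fibroblasts, 52.3 and 32.3 in mural and 341 and 317 in endothelial cells, and Tgfb1 at 3.56 and 4.42, 71.1 and 65.8 and 92.4 and 73.5. By DESeq2 Kitl did not pass against mural cells (adjusted p = 0.2).

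**Figure D4:**
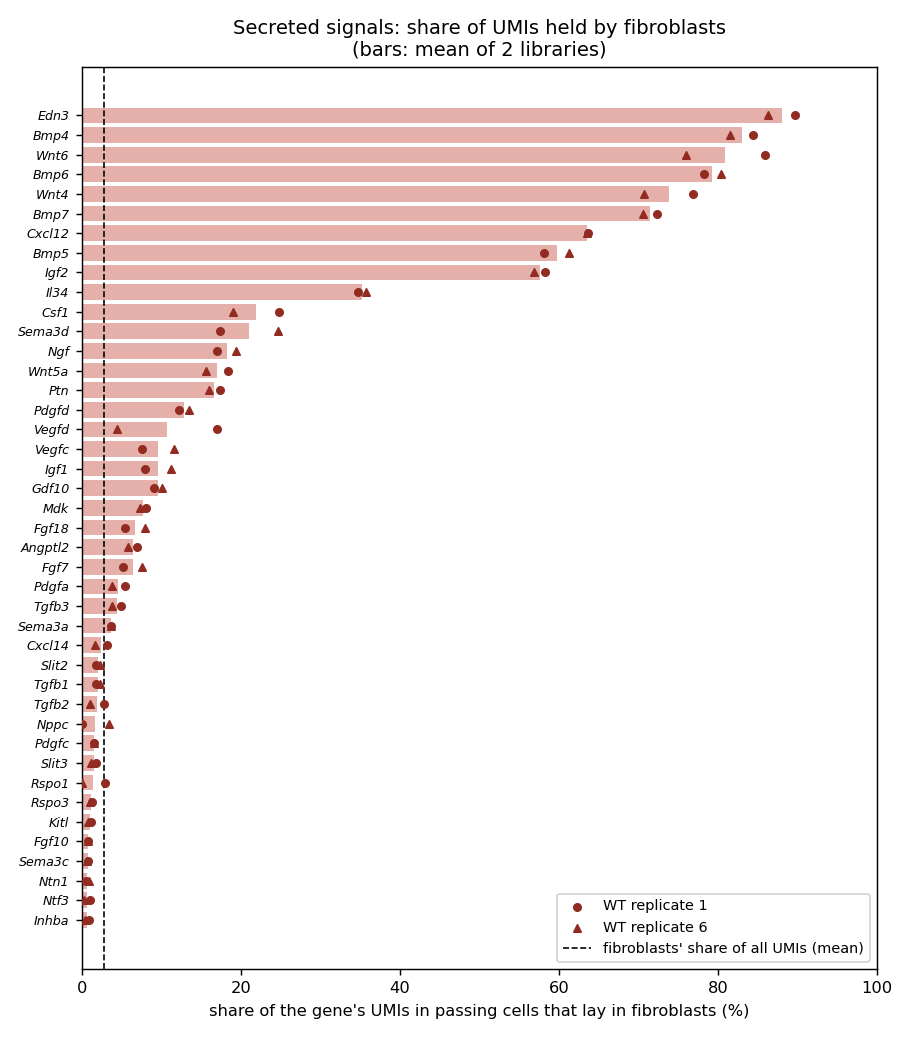
Share of the UMIs of each of 42 secreted signals, over all passing cells of a library, that lay in fibroblasts, in percent; bars are means of the 2 libraries, circles WT replicate 1, triangles WT replicate 6, and the dashed line marks the share of all UMIs. The upper 9 genes, Edn3 to Igf2, exceed 50% in both libraries, and the next, Il34, was at 34.7% and 35.7%.

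Secreted inhibitors and binding proteins were raised in part, with 9 of 26 at least 4-fold higher than elsewhere, 10 of 18 higher and 4 lower than in mural cells, and 12 of 19 higher and 4 lower than in endothelial cells. Igfbp2, an insulin-like growth factor binder, was at 2199 and 2218 CPM in fibroblasts against 80.0 and 93.1 in mural and 82.9 and 104 in endothelial cells (4.75 ± 0.20 and 4.57 ± 0.18). Igfbp7, of the same family, was at 29.0 and 15.2, 842 and 1059 and 1548 and 1475. The pair thus lay in opposite order, Igfbp7 being lower in fibroblasts by -5.33 ± 0.30 (edgeR adjusted p = 3.85e-06) and -6.06 ± 0.27 (4.84e-07). Gpc3, a heparan sulphate proteoglycan, was at 594 and 504 CPM against 95.8 and 128 in mural cells (2.37 ± 0.21, 3.98e-05), while the Wnt inhibitor Dkk2 was lower than in mural cells, at 36.1 and 18.9 against 113 and 103 CPM (-1.87 ± 0.27, 1.00e-03).

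Of 35 receptors, 12 were at least 4-fold higher and 2 lower than elsewhere, beside 6.37% and 4.63% over all genes. Against mural cells 12 of 32 were higher and 8 lower, beside 11.0% and 10.6%, and against endothelial cells 18 of 33 higher and 9 lower, beside 15.9% and 16.6%. The platelet-derived growth factor receptors divided fibroblasts from mural cells. Pdgfra was at 212 and 213 CPM in fibroblasts against 6.91 and 0 in mural cells (5.83 ± 0.44, edgeR adjusted p = 1.73e-05), and Pdgfrb, the receptor that pericytes depend on, at 110.5 and 123 against 607 and 663 (-2.38 ± 0.17, 1.59e-05). Ror2, a receptor of Wnt5a, was at 273 and 285 CPM against 61.2 and 63.3 in mural and 3.16 and 14.7 in endothelial cells. Ednra, the endothelin receptor of contractile cells, was lower than in mural cells, at 30.5 and 43.6 against 520.4 and 621 CPM (-3.88 ± 0.23, 5.29e-06). Tgfbr3 was higher than in both classes (1.77 ± 0.17 and 1.60 ± 0.17), whereas its relative Eng was lower than in both (-1.39 ± 0.20 and -3.61 ± 0.15).

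No retinoic acid gene passed as lower in fibroblasts in either main test. With the library as a replicate block Rara was lower than in endothelial cells (-0.775, edgeR adjusted p = 0.0379). Of 15, 9 were at least 4-fold higher than elsewhere, 10 of 13 were higher than in mural cells, and 8 of 13 than in endothelial cells, with a median log2 change of 3.65. Aldh1a2, the enzyme that makes retinoic acid from retinal, was at 256 and 232 CPM in fibroblasts, 0 in mural cells, 0 and 0.817 in endothelial cells and 0.585 and 0.329 in all others, and 93.1% and 94.8% of its UMIs lay in fibroblasts. It was at least 148-fold higher than in mural cells. Rdh10, which makes the retinal, was at 95.2 and 90.3 CPM against 23.7 and 36.0 in mural cells (1.73 ± 0.23, edgeR adjusted p = 6.12e-04). Cyp26b1, which breaks retinoic acid down, was higher as well, with 33 and 24 UMIs in fibroblasts and 1 in mural cells, a ratio of 29.2-fold (95% counting interval 5.04 to 1174). It rested on few cells, 8 and 10 members, of which the 3 highest carried 69.7% and 58.3% of its fibroblast UMIs. The interval does not cover this spread between cells. Of the nuclear receptors Rarb was higher than in mural cells (1.92 ± 0.19, 1.02e-04), and Rara, Rarg and Rxra did not pass.

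Transcription factors placed fibroblasts apart from both vessel classes. Of 43 measured, 29 were at least 4-fold higher than elsewhere, Foxc1 of the gate among them. Against mural cells 21 of 36 were higher and 5 lower, and against endothelial cells 28 of 41 were higher and 10 lower. Osr1, a zinc finger factor of connective tissue, was at 157 and 136 CPM in fibroblasts against 0.988 and 0 in mural and 0 and 0.817 in endothelial cells, and Tfap2b, a neural crest factor, at 104 and 156, 1.98 and 7.45 and 0.79 and 0. Msx1, a homeobox factor of craniofacial mesenchyme, was at 91.1 and 129, 3.95 and 1.24 and 1.58 and 3.27. All 3 had their lowest fibroblast value far above the highest value of the other classes. Other factors were shared with mural cells and not with endothelial cells. Foxd1 was at 173 and 177 CPM in fibroblasts and 103 and 124 in mural cells (0.70 ± 0.17, edgeR adjusted p = 0.0168, DESeq2 adjusted p = 0.0865) with no endothelial UMI, and Zic1, a factor of the meninges and pericytes, at 277 and 297 and 282 and 262, which did not pass (0.576). The 5 lower than in mural cells were Ebf1, Heyl, Foxf2, Zeb2 and, by edgeR but not DESeq2 (adjusted p = 0.0927), Foxp1, with Ebf1 at 132 and 79.6 against 1487 and 1512 CPM (-3.75 ± 0.25, 9.71e-06). Lef1 and Klf2, factors active in endothelium, were lower than in endothelial cells (-2.30 ± 0.15 and -3.64 ± 0.18), and Lef1 was higher than in mural cells (1.99 ± 0.26, 5.81e-04).

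Transporters and lipid carriers included Slc22a6, the gene of largest ratio to all other cells by the smaller of the 2 libraries (log2 9.46 and 9.57), while Osr1 was higher in WT replicate 1 and lower in WT replicate 6 (10.37 and 8.74). Of 22 measured, 15 were at least 4-fold higher than elsewhere, 12 of 18 were higher and 1 lower than in mural cells, and 13 of 19 were higher and 4 lower than in endothelial cells. Slc22a6, the organic anion transporter OAT1, had 625 and 563 UMIs in fibroblasts, or 318 and 356 CPM, none in either vessel class and 28 and 28 in all other cells, so that 95.7% and 95.3% of its UMIs lay in fibroblasts. That is at least 203-fold above mural and at least 278-fold above endothelial cells. Slc6a13, the taurine and GABA transporter GAT2, was at 443 and 444 CPM against 0.988 and 2.48 in mural cells, and Slc7a11, the cystine importer, at 319 and 407 against 11.8 and 1.24. Vtn, vitronectin, was carried by fibroblasts and mural cells alike at 935 and 767 and 1016 and 1298 CPM (log2 change -0.37 ± 0.19, edgeR adjusted p = 0.21) and nearly absent from endothelial cells. Apoe, a lipid carrier, was at 1051 and 1189 CPM in fibroblasts, 199 and 227 in mural and 476 and 539 in endothelial cells. Slc2a1, the barrier glucose transporter, was lower than in endothelial cells, at 10.2 and 20.8 against 717 and 808 CPM.

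The genes furthest from mural cells were Slc22a6, Aldh1a2, Cldn11, Gjb6, Crabp2, Wnt6, Vamp5, Fgfbp1, Fbln5, Lrrc17, Sp5, Gjb2, Gja1, Asgr1 and Slc13a4. Gja1, Gjb2 and Gjb6, 3 of the 15, encode connexins, the subunits of gap junctions. Gja1, connexin 43, was at 545 and 549 CPM in fibroblasts, 0.988 and 1.24 in mural and 95.6 and 66.1 in endothelial cells, and Gjb6, connexin 30, at 99.8 and 87.8 with no UMI in either class. Cldn11, a tight junction protein of the arachnoid, had 206 and 204 UMIs in fibroblasts and none in mural cells, at least 70.0-fold higher. The 15 furthest in the other direction were Mmp9, Chp2, Car4, Ifi203, Cpa1, B3galt5, Adap2os, Mndal, Higd1b, Col28a1, Art3, Pdzd2, Rgs4, Klk8 and Cox4i2. Higd1b, a pericyte marker, was at 8.65 and 5.68 CPM in fibroblasts and 1302 and 1356 in mural cells (-7.42 ± 0.26, edgeR adjusted p = 9.41e-07).

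Against endothelial cells the 15 furthest upward were Col1a1, Slc22a6, Gm30624, Foxd1, Col6a1, Col6a2, Col13a1, Abca9, Bmp5, Enpp1, Pcolce, Gpc3, Gjb6, Svep1 and Vtn. Enpp1, which makes the calcification inhibitor pyrophosphate, was at 113 and 119 CPM with no endothelial UMI. The 15 furthest downward were AU021092, Aplnr, Clec14a, Sox17, Ctla2a, Gimap6, Sox18, Ly6c1, Ptprb, Sox7, Prnd, Gch1, Dipk2b, Rassf9 and Slc38a5. They include the SoxF factors Sox7, Sox17 and Sox18, which specify endothelium and had no UMI in any fibroblast. Sox17 had 185 and 188 endothelial UMIs, at least 177-fold more per 1000000.

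Genes of the vessel wall were not all low in fibroblasts. Of 12 endothelial genes tested against endothelial cells all 12 were lower, and of 9 mural genes tested against mural cells 7 were lower and none higher. The gates set these directions in part, since they limit Cldn5 and Rgs5 in fibroblasts and ask for them in the other classes. Against mural cells 2 of 9 endothelial genes tested, Cdh5 and Ramp2, were higher, and 4, Esam, Emcn, Flt1 and Tek, were lower, with a list median of -0.44. Cdh5, the junction protein VE-cadherin, was at 65.7 and 49.3 CPM in fibroblasts and 0.988 and 0 in mural cells, with 129 and 78 UMIs in members against 1 mural UMI, 106-fold (95% counting interval 18.8 to 4210.0). Endothelial cells had 325 and 319. Cldn5 was limited by the gate to 1 UMI and occurred in 2 and 4 members. Ramp2, a co-receptor of adrenomedullin, was likewise at 264 and 284 CPM in fibroblasts, between 42.5 and 47.2 in mural and 1198 and 1252 in endothelial cells. Of the radial glia genes 1 of 7 tested, Slc1a3, was higher than in mural cells and 2, Nes and Fabp7, were lower (Nes not by DESeq2, adjusted p = 0.145, nor without likely doublets, edgeR adjusted p = 0.0795, and Fabp7 not with all 3 classes in a single edgeR fit, adjusted p = 0.419), and against all other cells 2 of 8 were at least 4-fold higher and 2 lower, with median log2 ratios of -1.43 and -1.62. Slc1a3, the glial glutamate transporter, was at 738 and 742 CPM in fibroblasts against 115 and 125 in all other cells pooled (3.66 ± 0.33 against mural cells, edgeR adjusted p = 4.72e-05). The counts of radial glia genes stand beside 11.0% higher and 10.6% lower than in mural cells over all genes. Against all other cells the shares over all genes were 6.37% and 4.63%. Radial glia were not measured as a class of their own, so their level of Slc1a3 is not given. Counts of smooth muscle genes were uneven over members. Acta2 had 442 and 8 UMIs in 7 and 6 members of WT replicates 1 and 6, and 3 cells of WT replicate 1 carried 98.2% of its count there. Tagln had 304 and 98 UMIs in 37 and 28 members, with 75% and 51.0% in the 3 highest cells. Without likely doublets Acta2 was lower than in mural cells (-5.78, edgeR adjusted p = 1.27e-04).

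Genes tied to the meningeal layers were present in the pooled class. Of 8 genes associated with the pia, 7 were at least 4-fold higher than elsewhere, 6 of 8 were higher than in mural and 8 of 8 than in endothelial cells. Of 11 measured genes associated with the arachnoid, 10 were at least 4-fold higher, and 10 of 10 tested were higher than in mural cells. The median over these 10 was 8.27, or 5.47 with genes at 0 in mural cells taken at their lower bound. Against endothelial cells 9 of 10 were higher. Genes associated with the dura were mixed, with 4 of 9 at least 4-fold higher, beside 6.37% over all genes. Against mural cells 3 of 7 were higher and 2 lower, beside 11.0% and 10.6%, and against endothelial cells 4 of 7 higher and 2 lower, beside 15.9% and 16.6%. None of 8 bone and cartilage genes was 4-fold higher. S100a6, a calcium-binding protein of the pia, was at 707 and 586 CPM in fibroblasts against 24.7 and 26.1 in mural cells, and Ngfr, the p75 neurotrophin receptor, did not differ past the threshold from mural cells (21.9 and 31.6 and 24.7 and 26.1 CPM, edgeR adjusted p = 0.797). Six2, Osr2 and Slc47a1 had too few UMIs to be described.

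Fibroblasts varied among themselves mainly in a few transcripts. Each member was thinned to 1500 UMIs, and the variance was divided by the mean for 2224 genes, where 1 is the value of counting noise alone. The medians were 1.05 and 1.06. The 10 genes of largest excess in both libraries were Ptgds, Trpm3, Gm42418, Erbb4, Nrxn3, Nrg1, Ptprd, Dcc, Tenm2 and Malat1. Ptgds, the prostaglandin D synthase that carries lipids in cerebrospinal fluid, had ratios of 64.5 and 166, and Trpm3, a cation channel, 19.8 and 16.4. Thinning is random, and in 20 other draws, added after seeing the data, 7 to 9 of these 10 genes were again among the first 10. Ptgds, Trpm3, Gm42418 and Nrxn3 were so in all 20 draws, with Ptgds at 62.7 to 78.4 and 140.9 to 173 and Trpm3 at 16.3 to 24.0 and 12.8 to 17.0, whereas Dcc was in 2 and Tenm2 in 10. Nrxn3, Erbb4, Dcc and Tenm2 are transcripts of neural cells, and neuronal markers were highest in the likely doublets, as given above. Without likely doublets 6 of the 10 genes were among the first 10, with Ptgds at 53.1 and 193 and Trpm3 at 15.5 and 15.7. In 20 draws Ptgds, Trpm3 and Gm42418 were among them in all 20, Nrxn3 and Tenm2 in 19 and Malat1 in 17. Dcc was among them in 4, and Erbb4, Nrg1 and Ptprd in none. Across members Nrxn3 and the neural transcript Sox2ot correlated with r = 0.85 in WT replicate 1 (n = 116 cells) and 0.79 in WT replicate 6 (n = 111), on log2 values scaled to 10000 UMIs. Cells of a library share its depth and free RNA, so correlations are given without a test. Without likely doublets r was 0.77 and 0.77 (n = 74 and 70 cells).

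Ptgds rested on few cells. It was detected in 27 and 18 members, with a maximum of 1362 and 2050 UMIs in a single cell, and the 3 highest cells carried 81.2% and 87.9% of the class's Ptgds UMIs. Its pooled level of 2135 and 2394 CPM is therefore not that of a typical member. Across members Ptgds and Trpm3 correlated with r = 0.70 and 0.72, Ptgds and Crabp2, a retinoic acid carrier, with 0.61 and 0.54, and Lama1 and Trpm3 with -0.56 and -0.52. Some genes listed with the pia went together, with r = 0.64 and 0.65 for Lama1 and Col18a1 and 0.67 and 0.60 for S100a6 and Cxcl12. Of others listed with the pia, Ngfr was weaker, at 0.23 and 0.25 with Lama1, and Lama2 weaker still, at 0.14 and 0.12 with Lama1. Some genes listed with the arachnoid went with pial ones, at 0.51 and 0.53 for Tbx18 and Lama1 and 0.23 and 0.40 for Slc6a13 and Cxcl12. Without likely doublets r was 0.71 and 0.72 for Ptgds and Trpm3, -0.61 and -0.47 for Lama1 and Trpm3, and 0.52 and 0.46 for S100a6 and Cxcl12.

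Members were therefore described on either side of 10 Trpm3 UMIs, a limit chosen after the values were seen. The limit left 30 and 21 members high and 86 and 90 low, with 14 and 7 members between 5 and 19 UMIs and 62 and 68 without a Trpm3 UMI. Depth was similar, at medians of 15565 and 14491 UMIs in high members and 14462.5 and 12815 in low members, while 12 of 30 and 12 of 21 high members were likely doublets, against 30 of 86 and 29 of 90 low members. Because the cells were divided on their own counts, the following is a description. Ptgds was at 7689 and 11656 CPM in high members and 9.85 and 6.36 in low members. Cldn11 was at 223 and 416 against 59.8 and 54.8, and Crabp2 at 239 and 166 against 28.2 and 35.7. Cdkn1c, an imprinted inhibitor of the cell cycle, was at 3204 and 3168 against 769 and 743, and the dicarboxylate and sulphate transporter genes Slc13a3 and Slc13a4 at 79.1 and 95.5 against 11.3 and 8.74 and 93.8 and 89.4 against 24.6 and 7.94. In reverse, Lama1 was at 199 and 120.2 CPM in high members and 531 and 535 in low members, Col18a1 at 112 and 52.4 against 314 and 320.1, and Cxcl12 at 682 and 669 against 1227 and 1323.

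By list, 8 of 9 arachnoid-associated genes with enough UMIs were higher in the Trpm3-high members in both libraries, Tbx18 being lower, and 6 of 8 pia-associated genes were lower, Lama2 being higher. Over all 8858 genes described the shares were 24.8% higher and 34.8% lower. Among genes common to the class, Lum was lower in high members, at 208 and 240.4 against 331 and 368 CPM, and Col3a1 as well, at 1149 and 1448 against 1591 and 1672. By contrast Col1a1 and Dcn had opposite directions in the libraries and Slc22a6 was slightly higher in both, as Col1a1 was at 495 and 743 against 796 and 727 CPM, Dcn at 1166 and 1652 against 1299 and 1336, and Slc22a6 at 357 and 382 against 303 and 349. Without likely doublets 18 and 9 high members were left, and 7 of 8 arachnoid-associated genes were higher and 6 of 8 pia-associated genes lower, beside 26.3% higher and 28.7% lower over 6523 genes.

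**Figure D5:**
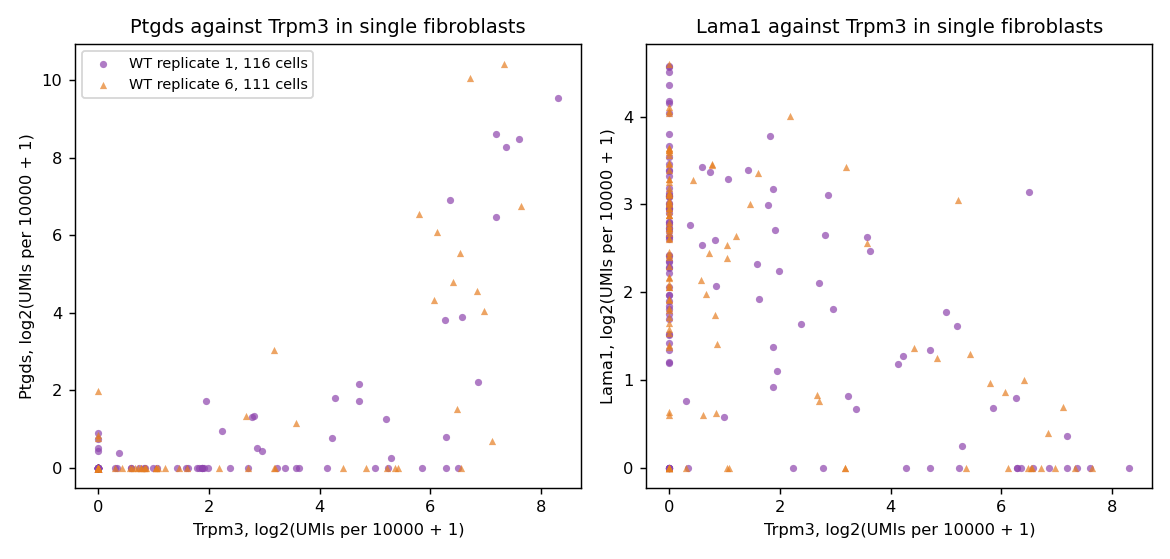
Ptgds (left) and Lama1 (right) against Trpm3 in each of 116 and 111 fibroblasts, as log2 of UMIs scaled to 10000 a cell plus 1; purple circles are WT replicate 1 and orange triangles WT replicate 6. The cells of highest Ptgds are all at the right, high in Trpm3 (r = 0.70 and 0.72), and Lama1 is lower there (r = -0.56 and -0.52).

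Proliferation genes did not set fibroblasts apart. None of 42 S phase and none of 52 G2/M genes was 4-fold higher or lower than in all other cells, beside 6.37% and 4.63% over all genes. Against mural cells 2 of 42 and 3 of 50 tested were higher and none lower, beside 11.0% and 10.6% over all genes. After thinning to 1500 UMIs, 54.3% (Wilson 95% interval 45.3 to 63.1) and 54.1% (44.8 to 63.0) of fibroblasts had at least 2 UMIs of the G2/M genes, against 57.9% and 55.9% of all other cells and 62.2% and 60% of mural cells. Over 20 other draws of the thinning the shares ran from 44.0% to 58.6% and 49.5% to 61.3% in fibroblasts and from 45.6% to 65.6% and 48.2% to 63.5% in mural cells. Without likely doublets they were 48.6% and 58.6% in fibroblasts. At 3000 UMIs the shares were 67.2% and 77.5% in fibroblasts and 86.6% and 84.9% in other cells, of which 1749 and 1581 were too shallow to enter. The mean number of G2/M UMIs at 3000 had another order, 10.6 and 8.53 in fibroblasts against 8.70 and 8.49 in other cells, so no difference in cycling is read from the shares.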

How the data were processed

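The authors aligned and counted the reads of both libraries with Cell Ranger 7.0.0 on mm10, per the labels, and deposited an unnormalized count of UMIs for every gene in every cell. Whether intronic reads were counted was not given in the sources used here. Cell classes, thresholds, gene lists and named genes were chosen with earlier results of these data known. The genes named were those of the lists, the 15 furthest in each direction of each test (called, same direction in both libraries, at least 20 UMIs in each sum of the higher class), the 20 of largest ratio to the rest (at least 20 UMIs in each sum) and the 10 of largest excess variance. Counts were summed per class and library and tested with edgeR 4.0.16 (TMM scaling, its default filter on low counts, quasi-likelihood F test, Benjamini-Hochberg adjustment), with DESeq2 1.42.0 as an alternative. Levels are CPM of the class sum. Ratios to the rest used a prior count of 0.5. A fold against a class without UMIs was computed against 3 counts over both libraries and given as a lower bound, and ratios to 1 to 3 counts have 95% counting intervals. Likely doublets were the cells of highest Scrublet-type score at 0.8% per 1000 barcodes and stayed in unless stated. Both classes of a test come from the same suspensions, and same-library sums deviated together (r = 0.160 and 0.155). On simulated counts the tests found 44% and 52.5% of 2-fold changes against mural and endothelial cells, and 100% and 94.9% of 4-fold changes. The changes were placed only in genes with at least 10 expected UMIs in every sum, at a common dispersion and without a library effect. These shares therefore do not cover genes of fewer UMIs. Of the unchanged genes 5 and 9 were called. Promoters are from RefSeq on GRCm38.p6. Some genes of the lists are not reported here by name.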

Additional observations from a re-analysis of the deposited data

How the results depend on the processing

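The share of fibroblasts, 1.39%, became 1.49% with 3000 to 30000 UMIs and under 5% mitochondrial UMIs, 1.44% with at least 2 Col1a2 UMIs, 1.31% with no Cldn5 or Rgs5 UMI allowed and 0.989% without likely doublets, and ranged from 1.35% to 1.43% with either library left out. Of genes above all other cells, 581 passed at 8-fold in place of 1127 at 4-fold, and single libraries gave 1383 to 1534. DESeq2 called 1485 genes against mural cells where edgeR called 2387, and 2432 against endothelial cells in place of 3681. With the library as a replicate block, a paired fit, the counts were 2968 and 4037, and beside Lamc3 it brought 6 other named results past the threshold (Dcc, Fosb, Nrg1 and Ptprd against mural cells, Nrxn3 and Rara against endothelial cells) and lost none. The share of fibroblasts with G2/M UMIs, 54.2%, was 72.4% at 3000 UMIs a cell, 84.5% for at least 1 UMI and 37.5% for at least 3, 53.6% without likely doublets, 54.1% to 54.3% by library and 49.5% to 57.4% over 20 other draws of the thinning. The 9 signals held mainly by fibroblasts numbered 9 under each of the 7 alternatives run for them, likely doublets left out included. Of the 10 most variable genes 6 were shared without likely doublets. Tagln turned from 0.05 to -1.49 against mural cells taken at any Col1a2 count, and Dcc from 0.17 to -1.40 against endothelial cells without likely doublets. Of the test results of single named genes, 300 kept direction and side of the threshold by DESeq2 and 15 lost the call, and without likely doublets 297 did, 7 lost it, 6 gained it and 1 turned. Leaving out a library leaves a test with no residual degrees of freedom, so single-library ratios were given without one. With 2 libraries, 111 to 116 members and the vessel classes smaller still, changes under 2-fold and genes of few UMIs are the least certain.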

Other observations

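Imprinted genes, of which many regulate fetal growth, were higher in fibroblasts for some members and lower for others. Of 18 measured, 6 were at least 4-fold higher than in all other passing cells in both libraries, beside 6.37% over all genes. By edgeR at an adjusted p under 0.05, 7 of 17 were higher and 4 lower than in mural cells, beside 11.0% and 10.6% over all genes. Against endothelial cells 12 of 17 were higher and 3 lower, beside 15.9% and 16.6%. Cdkn1c was at 1443 and 1239.9 CPM in fibroblasts of WT replicates 1 and 6, 141 and 161 in mural and 227 and 202 in endothelial cells (3.22 ± 0.19 against mural cells, edgeR adjusted p = 5.48e-06). Peg3, a zinc finger gene expressed from the paternal copy, was at 304 and 371, 32.6 and 33.5 and 22.9 and 30.2, and H19, a maternally expressed non-coding RNA, at 289.6 and 221, 90.9 and 78.2 and 88.5 and 22.9. Both passed against both vessel classes by edgeR (adjusted p = 5.76e-06 and 1.19e-06 for Peg3, 3.10e-04 and 0.0033 for H19), but H19 did not against endothelial cells by DESeq2 (adjusted p = 0.076). Dlk1, a Notch-related ligand, and Meg3, a non-coding RNA of the same imprinted region, were lower than in mural cells, with log2 differences of -3.34 ± 0.23 (edgeR adjusted p = 1.20e-05) and -1.48 ± 0.17 (2.28e-04), and higher than in endothelial cells, where Dlk1 had no UMI and fibroblasts stood at least 35.3-fold higher.

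Immediate early genes, which dissociation can raise, were measured as well. Of 19 immediate early and heat shock genes 5 were at least 4-fold higher than in all other passing cells in both libraries, namely Ier3, Fosb, Hspb1, Egr1 and Fos. Fos was at 59.6 and 28.4 CPM in fibroblasts and 47.4 and 36.0 in mural cells (0.16 ± 0.35, edgeR adjusted p = 0.799), and without likely doublets it passed as higher (1.25, edgeR adjusted p = 0.0184). Fosb had 109 and 28 UMIs in members of WT replicates 1 and 6 and did not pass against mural cells (edgeR adjusted p = 0.129, or 0.0108 with the library as a replicate block). Against mural cells 2 of 16 such genes were higher and 2 lower, beside 11.0% higher and 10.6% lower over all genes. Against endothelial cells 3 of 18 were higher and 6 lower, beside 15.9% higher and 16.6% lower over all genes. The 3 were Fosb, Egr1 and Fos, of which Fos did not pass by DESeq2 (adjusted p = 0.273) and Fosb and Egr1 did not with 3000 to 30000 UMIs and under 5% mitochondrial UMIs (edgeR adjusted p = 0.118 and 0.0644).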
